A study of Mus musculus with 6 samples.

Results

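Potassium channel genes, those whose symbol starts with Kcn, were described in 6 samples labelled as mouse aorta. Every gene with such a symbol and a probe set naming no other gene was taken, apart from symbols ending in os or -ps, which gave 91 of 19938 genes on the array. Where a gene had several probe sets, as Kcna2, Kcnma1 and Kcnh8 did, the probe set of highest mean over the 6 arrays stood for it. The 91 comprise 72 pore-forming subunits, 16 auxiliary subunits, the regulator Kcnrg, and 2 transcripts from the strand opposite Kcnmb4, whose symbols Kcnmb4os1 and Kcnmb4os2 end in a digit. The samples were 3 aortas of Trail knockout mice, which came from Amgen, and 3 aortas of wild-type mice. All were 6 weeks old and carry the strain label C57Bl6/J. The comparison asked what the loss of Trail, a cytokine that can trigger apoptosis and is encoded by Tnfsf10, changes in the aorta. How the allele was made, whether animals were pooled and whether the arrays held separate animals are not stated in the labels, so p-values measure only the spread between these samples.

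Potassium channels let potassium leave the cell, which holds the membrane negative and returns it there after excitation. In arterial smooth muscle, their opening closes voltage-gated calcium channels and relaxes the vessel. Inward rectifiers (Kcnj) and tandem-pore leak channels (Kcnk) set the resting potential, voltage-gated channels (Kcna, Kcnb, Kcnc, Kcnd, Kcnh, Kcnq) repolarise the membrane, and Kcnma1 and Kcnn channels open with calcium. The same gene family serves other tissues: Kcnq1 with Kcne2 recycles potassium for acid secretion in the stomach, and Kcnj2 stabilises the resting potential of skeletal muscle.

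Values were the deposited log2 signals, on which 1 unit is a 2-fold difference. Signals are set against each other only across arrays for the same gene, because probe sets differ in brightness. Of the 91 genes, 35 passed a filter that left out the lowest 40% of single-symbol probe sets by mean, and 56 did not. The values of the genes that failed it were dim on most arrays, and no detection calls were used here.

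The contrasts described below rest on 11 genes that stood more than 2-fold beyond all other arrays on 1 array. For 5 of them the promoter is shown, because they lie furthest out or next to each other. Kcnj16 and Kcnj2 are neighbours on chromosome 11 and Kcne2 and Kcnj15 both lie on chromosome 16. The windows cover 250 bases before to 50 bases after the annotated start, on the assembly GRCm38.p6, with sequences from RefSeq. All 5 genes lie on the plus strand, at chr11:110967783-110968082 for Kcnj16, chr11:111065914-111066213 for Kcnj2, chr16:95257308-95257607 for Kcnj15, chr16:92292139-92292438 for Kcne2 and chr3:64948962-64949261 for Kcnab1. The table holds 4 starts for Kcnj16, 2 for Kcne2 and 3 for Kcnab1, and the outermost is shown. Capitals mark matches to 5 motifs searched on both strands, the TATA box (TATAAA), the CCAAT box, the GC box (GGGCGG), the oestrogen-related receptor element (TCAAGGTCA) and an E-box (CAGCTG).
Kcnj16: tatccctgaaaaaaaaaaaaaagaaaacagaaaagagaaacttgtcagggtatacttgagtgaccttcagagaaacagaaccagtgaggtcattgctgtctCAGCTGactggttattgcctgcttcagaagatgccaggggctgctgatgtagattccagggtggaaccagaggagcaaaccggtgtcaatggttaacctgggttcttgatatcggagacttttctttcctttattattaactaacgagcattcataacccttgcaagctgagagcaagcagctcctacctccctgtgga
Kcnj2: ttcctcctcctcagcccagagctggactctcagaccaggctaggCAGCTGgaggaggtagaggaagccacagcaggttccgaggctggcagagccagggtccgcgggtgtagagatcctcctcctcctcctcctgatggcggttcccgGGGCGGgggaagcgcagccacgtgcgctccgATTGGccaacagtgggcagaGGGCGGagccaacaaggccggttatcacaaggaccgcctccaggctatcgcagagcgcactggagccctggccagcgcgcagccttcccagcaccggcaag
Kcnj15: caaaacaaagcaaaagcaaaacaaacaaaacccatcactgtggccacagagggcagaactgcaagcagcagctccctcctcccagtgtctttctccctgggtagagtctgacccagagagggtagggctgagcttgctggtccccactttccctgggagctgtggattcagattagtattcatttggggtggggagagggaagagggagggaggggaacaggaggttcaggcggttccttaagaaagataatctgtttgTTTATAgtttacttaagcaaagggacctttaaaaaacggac
Kcne2: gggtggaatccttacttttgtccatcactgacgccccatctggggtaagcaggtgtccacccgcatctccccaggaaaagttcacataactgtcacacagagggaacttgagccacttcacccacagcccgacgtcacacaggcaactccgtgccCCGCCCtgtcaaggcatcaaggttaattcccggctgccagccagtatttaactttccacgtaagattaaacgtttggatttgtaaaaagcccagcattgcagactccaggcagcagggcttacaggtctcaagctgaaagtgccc
Kcnab1: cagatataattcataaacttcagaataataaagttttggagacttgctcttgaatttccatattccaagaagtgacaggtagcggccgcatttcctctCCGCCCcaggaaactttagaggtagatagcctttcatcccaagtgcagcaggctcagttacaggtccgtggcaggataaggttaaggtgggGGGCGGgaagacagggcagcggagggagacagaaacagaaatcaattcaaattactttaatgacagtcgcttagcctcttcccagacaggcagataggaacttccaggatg
The Kcnj16 window held an E-box and no other match, while that of its neighbour Kcnj2 held an E-box, a CCAAT box and 2 GC boxes. The Kcnj15 window held a TATA box on the opposite strand, 9 bases after the start, the Kcne2 window held 1 GC box and the Kcnab1 window held 2. Promoters of 69 of the 91 genes were in the table. Of these, 36 (52.2%) held a GC box, against 35.9% of 27025 promoters in the table, and 3 (4.35%) held TATAAA, against 14.2%. A CCAAT box stood in 21 (30.4%) against 38.0%, an E-box in 17 (24.6%) against 16.1%, and the receptor element in none against 0.407%. A match is a description of letters in a window, and binding was not measured.

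The arrays differed in the tissue markers they showed, and group names follow the labels. Tnfsf10 had a log2 signal of 5.02, 4.48 and 4.09 on the 3 knockout arrays, against 8.42, 4.90 and 4.85 on the 3 wild-type arrays, so knockout 1 was above wild types 2 and 3. Wild types 2 and 3 both lay inside the range of the knockout arrays, so Tnfsf10 did not separate them from the knockout. The labels do not state which exons the knockout lacks, and whether this probe set reports the deletion was not tested. Every genotype direction below rests on the labels. Wild type 1 correlated with the other 5 arrays at r from 0.880 to 0.891, and those 5 with each other at 0.967 to 0.996. These correlations ran over 19938 genes, each with its probe set of highest mean. Wild type 1 lay more than 2-fold under each other array for 22 of 22 skeletal muscle and 20 of 20 squamous epithelium markers, and more than 2-fold over each for 9 of 11 brown fat, 8 of 11 white fat and 9 of 13 neuron markers. Knockout 2 exceeded each other array more than 2-fold for 13 of 14 stomach epithelium markers, with a median of 11.78 against 4.80 to 6.63. Knockout 1 did so for 9 of 12 lung epithelium markers. The stomach median of 6.63 was that of wild type 3, while knockouts 1 and 3 and wild types 1 and 2 had 4.80 to 5.35. Some single stomach markers were thus also raised on wild type 3. Gkn1 had 8.99 there against 5.04 to 5.51 on those arrays, while Chia1 had 4.92 against 4.62 to 5.34. Vascular smooth muscle markers had medians of 9.60 to 10.23 on the knockout arrays and 9.26 to 9.92 on the wild-type arrays. Single markers of that list moved more on wild type 1. There 2 of 16, Itga8 and Sost, were over 2-fold above every other array, and 2, Des and Actg2, were over 2-fold below. Fewer cells of a type and less RNA per cell cannot be told apart in such bulk samples.

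**Figure D1:**
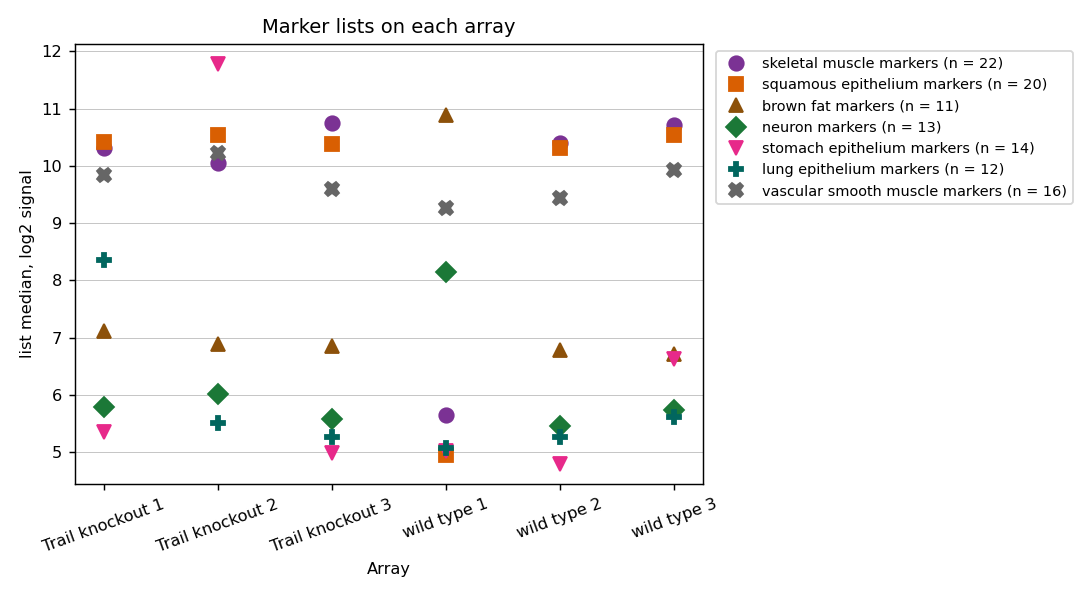
Median log2 signal of marker lists of tissues and cell types (1 symbol per list) on each array, Trail knockout arrays left of wild-type arrays. Stomach markers stand high on knockout 2 with a median of 11.78, and skeletal muscle markers stand low on wild type 1 with a median of 5.65.

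Kcnj16, Kcnj15, Kcne2 and Kcnq1 stood more than 2-fold above all other arrays on knockout 2. These were 4 of 91 genes (4.40%), against 1.26% of all genes on that array. None of the 91 stood so far above on knockout 1 (0.0953% of all genes), knockout 3 (0.0%), wild type 2 (0.01%) or wild type 3 (0.01%), and none so far below on these 4 arrays, where 0.0% of all genes did. Kcnj16, which pairs with Kcnj10 or Kcnj15 in pH-sensitive inward rectifiers of epithelia, had a log2 signal of 9.23 on knockout 2, against 4.39 and 4.0 on knockouts 1 and 3 and 3.87, 3.54 and 4.31 on the wild-type arrays. It failed the signal filter, and its other arrays were dim, so no fold is given. Kcnj15, an inward rectifier present in gastric parietal cells, had 9.33 on knockout 2, against 6.22 and 5.93 on knockouts 1 and 3 and 6.10, 6.06 and 6.11 on the wild-type arrays. The remaining arrays lay close together for Kcnj15, and knockout 2 was 8.66 times the next array.

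Kcne2, a single-span subunit that holds Kcnq1 open in parietal cells, had 7.54 on knockout 2, against 5.08 and 4.69 on knockouts 1 and 3 and 4.77, 4.33 and 4.81 on the wild-type arrays. Kcnq1, a voltage-gated pore subunit also used in heart and artery, had 7.86 on knockout 2, against 6.44 and 6.07 on knockouts 1 and 3 and 6.06, 6.01 and 6.31 on the wild-type arrays. Both genes of this gastric pair were thus high on the same array. Kcnq1 was 2.67 times the next array there, while Kcne2 failed the filter and was dim elsewhere. Atp4a, the catalytic subunit of the gastric proton pump, had 12.44 on that array against 5.05 to 6.63 on the other 5. The part of stomach markers in these values was not tested.

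At 1.5-fold the count on knockout 2 was 7, against 2.00% of all genes, and added Kcnk10, Kcnj13 and Kcnn4. Kcnk10, a leak channel opened by stretch and fatty acids, had 6.48 on knockout 2 against 4.98 to 5.56 on the other 5 arrays. Kcnj13, an inward rectifier of transporting epithelia, had 6.26 there against 4.95 to 5.62. Kcnn4, the intermediate-conductance calcium-activated channel of epithelium, endothelium and blood cells, had 6.85 against 5.88 to 6.17. Kcnk10 and Kcnj13 failed the signal filter and were dim on the other arrays, while Kcnn4 passed it. Knockout 2 was the highest of the 6 arrays for 21 of the 91 genes (23.1%), against 11.5% of all genes, some by smaller steps. Kcnk1 had 6.83 against 5.83 to 6.33, and Kcnk5, a leak channel opened by alkaline pH, had 6.82 against 5.87 to 6.31. Kcnma1, the BK pore, had 8.34 against 7.09 to 7.78. No gene of the 91 was over 2-fold below every other array on knockout 2, where 0.00502% of all genes were.

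**Figure D2:**
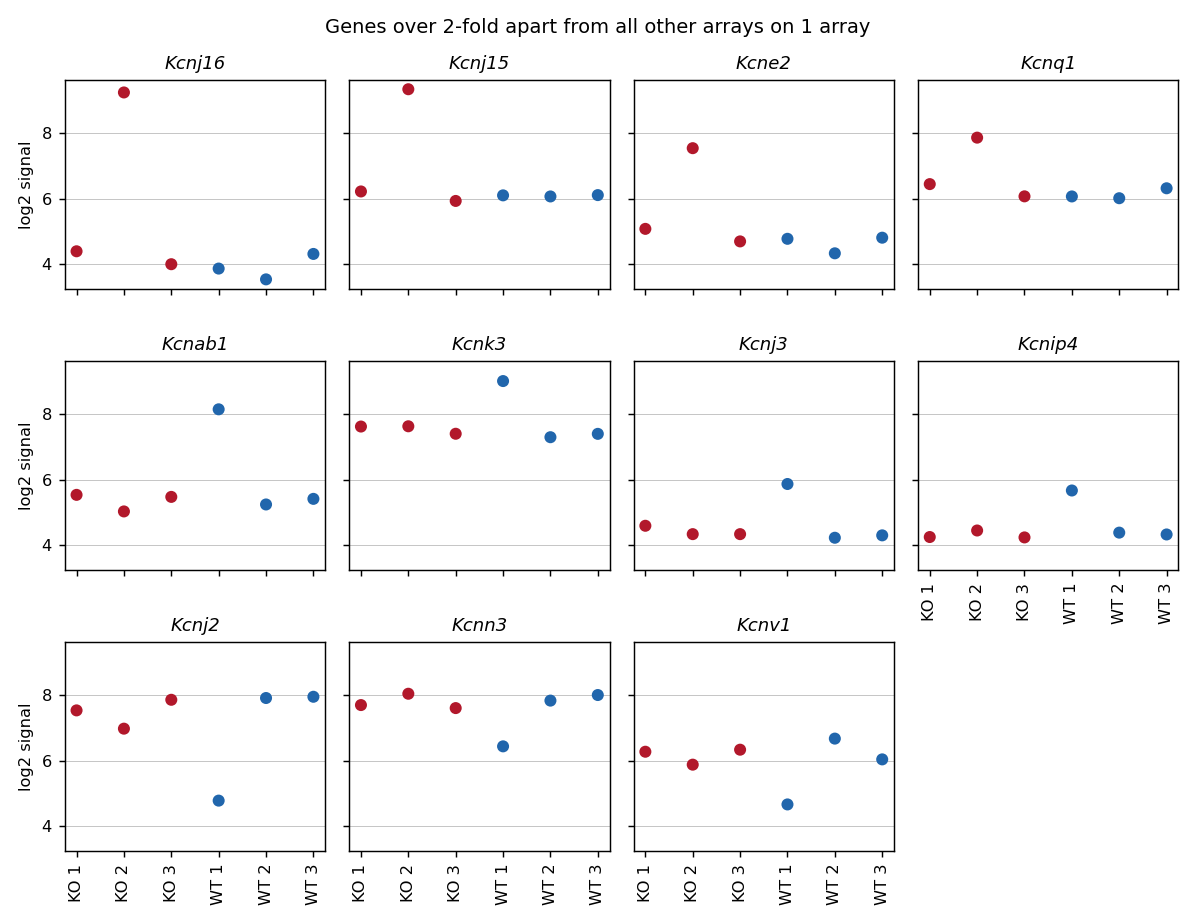
Log2 signal on each array for the channel genes that stood over 2-fold above or below every other array on 1 array, with Trail knockout arrays left of wild-type arrays. Kcnj16 reaches 9.23 on knockout 2, against 3.54 to 4.39 on the other 5 arrays, and Kcnj2 lies at 4.78 on wild type 1, against 6.98 to 7.95.

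On wild type 1, 4 of 91 genes (4.40%) were over 2-fold above every other array, against 4.73% of all genes, and 3 (3.30%) were over 2-fold below, against 4.74%. The shares were near those of the whole array, so the channel genes did not stand apart in number. Kcnab1, a beta subunit that gives Kv1 channels fast inactivation, had a log2 signal of 8.14 on wild type 1, against 5.54, 5.03 and 5.47 on the knockout arrays and 5.24 and 5.41 on wild types 2 and 3. It failed the filter and was dim on the other arrays. At 4-fold it was the 1 channel gene above on wild type 1, against 1.18% of all genes. Kcnk3, an acid-sensitive leak channel of arterial muscle and brown fat, had 9.0 on wild type 1, against 7.62, 7.63 and 7.40 on the knockout arrays and 7.29 and 7.39 on wild types 2 and 3. The 5 other arrays of Kcnk3 lay close together.

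Kcnj3, a G-protein-gated inward rectifier of atrium and neurons, had 5.87 on wild type 1, against 4.59, 4.34 and 4.34 on the knockout arrays and 4.23 and 4.30 on wild types 2 and 3. Kcnip4, a calcium-binding partner of Kv4 channels in neurons, had 5.67 on wild type 1, against 4.25, 4.45 and 4.24 on the knockout arrays and 4.38 and 4.33 on wild types 2 and 3. Neither of these passed the signal filter, so their levels on the other arrays were dim too. Even on wild type 1 both lay under the cut of that filter, a mean signal of 5.9. On that array neuron markers had a median of 8.14 against 5.45 to 6.01 on the other 5, brown fat markers 10.89 against 6.72 to 7.12 and cardiac muscle markers 7.72 against 5.68 to 6.40. The cardiac list was split there, with 6 of 11 markers over 2-fold above every other array and 1 over 2-fold below. The latter was Myl3, at 6.19 against 11.23 to 11.90. The part of these marker lists in the levels of Kcnk3, Kcnj3 and Kcnip4 was not tested.

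Kcnj2, the inward rectifier that stabilises the resting potential of muscle, fell furthest below the other arrays on wild type 1 among the 91 genes. Its log2 signal was 4.78 on wild type 1, against 7.53, 6.98 and 7.86 on the knockout arrays and 7.91 and 7.95 on wild types 2 and 3. Kcnn3, a small-conductance calcium-activated channel of endothelium and neurons, had 6.44 on wild type 1, against 7.70, 8.04 and 7.60 on the knockout arrays and 7.83 and 8.0 on wild types 2 and 3. Kcnv1, a silent subunit that alters Kv2 channels, had 4.67 on wild type 1, against 6.27, 5.88 and 6.34 on the knockout arrays and 6.67 and 6.04 on wild types 2 and 3. Wild type 1 lay below both genotypes' other arrays for each of these genes. Endothelial markers were higher on wild type 1, with a median of 8.755 against 7.147 to 7.925 on the other 5 arrays. There 4 of 12 endothelial markers were over 2-fold above every other array, and neuron markers were higher too, as given above. The part of these lists in the level of Kcnn3 was not tested.

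At 1.5-fold, 6 genes were above on wild type 1, against 9.24% of all genes. The number below at 1.5-fold was 7, against 7.32% of all genes, and included Kcnj11, Kcnj12, Kcnk6 and Kcnq5. Kcnj11, the pore of ATP-sensitive channels in skeletal muscle and pancreatic islets, had 6.36 on wild type 1 against 7.01 to 7.43 on the other 5 arrays, and Kcnj12, a relative of Kcnj2, had 5.50 against 6.25 to 6.67. Kcnk6, a leak channel of vessels, had 6.59 against 7.55 to 7.98, and Kcnq5, a voltage-gated channel of skeletal and smooth muscle, had 6.35 against 7.07 to 7.45. Kcna7, a Kv1 pore of muscle, was also lowest there at 5.80, against 6.35 to 6.89. Skeletal muscle markers had a median of 5.65 on wild type 1 against 10.05 to 10.76, and the part of that tissue in these channels was not tested.

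Kcnj16 and Kcnj2 lie next to each other on chromosome 11 but did not stand out on the same array. On knockout 2, Kcnj16 differed by 5.17 and Kcnj2 by -0.84 on the log2 scale from the mean of the 4 arrays other than wild type 1. On wild type 1, Kcnj2 differed by -3.03 and Kcnj16 by -0.20 from the mean of the 4 arrays other than knockout 2, and Kcnj16 lay inside the range of those 4. Kcnj6 and Kcnj15, neighbours on chromosome 16, also differed, by 3.25 for Kcnj15 and -0.05 for Kcnj6 on knockout 2, from the mean without wild type 1.

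**Figure D3:**
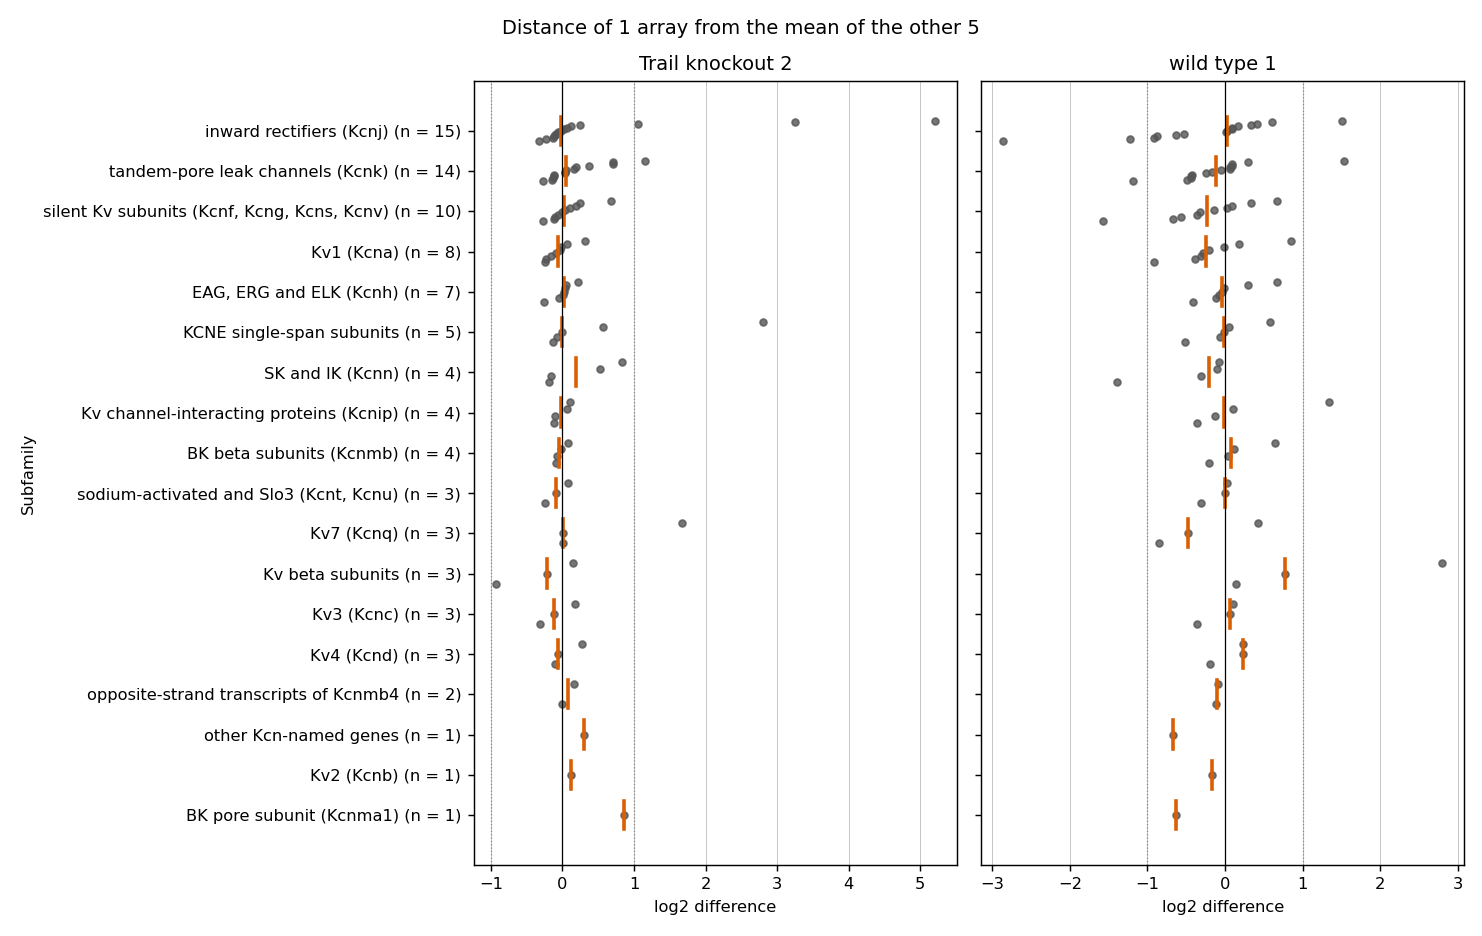
Difference of Trail knockout 2 (left panel) and wild type 1 (right panel) from the mean of the other 5 arrays (log2) for every channel gene by subfamily. Points are genes, orange bars are subfamily medians and dotted lines mark a 2-fold difference, and Kcnj points reach furthest with 5.21 for Kcnj16 on knockout 2 and -2.86 for Kcnj2 on wild type 1.

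The difference of wild type 1 from the mean of the other 5 arrays had a median of -0.07 over the 91 genes, against 0.03 over all genes. Without knockout 2 among the other arrays it was -0.02, against 0.03. It was 0.01 against 0.05 over all genes with quantile normalization, and 0.02 against 0.12 with median centring. The medians of Kcnh, Kcne, Kcnip and the sodium-activated channels lay near 0 and changed sign under these scalings. The 15 inward rectifiers (Kcnj) had a median of 0.03 but spanned -2.86 to 1.51. Wild type 1 was the highest array for 4 of them and the lowest for 4. Besides those above, Kcnj8, the vascular pore of ATP-sensitive channels, was highest on wild type 1, and Kcnj4, Kcnj14, Kcnj9, Kcnj10, Kcnj5, Kcnj1 and Kcnj6 all failed the filter and differed by 0.01 to 0.41 there.

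The 14 tandem-pore genes had a median of -0.11, and Kcnk3 differed by 1.54. Wild type 1 was the lowest array for 6 of the 14, namely Kcnk1, Kcnk5, Kcnk6, Kcnk4, Kcnk7 and Kcnk18, and the highest for Kcnk3 alone. Kcnk15, Kcnk13 and Kcnk12 passed the filter and differed by -0.05 to 0.29.

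In the voltage-gated groups, the 8 Kv1 genes had a median of -0.25, with Kcna7 at -0.91 and Kcna5 at 0.85. The 3 Kv7 genes had a median of -0.47, which was -0.14 without knockout 2, where Kcnq1 was high. The 10 silent subunits had a median of -0.23, with Kcns3 at 0.67, Kcng2 at 0.09 and Kcng1 at -0.36. The 7 Kcnh genes had a median of -0.04, where Kcnh2, the pore of the rapid delayed rectifier of the heart, passed the filter with 6.80, 6.77 and 6.72 on the knockout arrays and 6.71, 6.60 and 6.75 on the wild-type arrays. Kcnh2 thus varied little over the 6 arrays and did not separate the genotypes. Kcnc4 and Kcnd3 passed as the only genes of the Kv3 and Kv4 groups, with differences of 0.11 and -0.20 on wild type 1.

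The 3 Kv beta genes had positive differences, with a median of 0.78. Kcnab2 had 6.71 on wild type 1 against 5.75 to 6.06 on the other 5 arrays, while Kcnab3 had 5.01 against 4.56 to 5.03. The 4 BK beta genes had a median of 0.08, led by Kcnmb1, the smooth muscle beta subunit, at 0.64. Of the 5 single-span Kcne genes, Kcne4, which damps Kv1 and Kcnq1 channels, differed by 0.58, and the median was -0.02, or 0.04 without knockout 2. The 4 Kcnip genes all failed the filter, and apart from Kcnip4 they differed by -0.36 to 0.10.

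The remaining genes were dim or steady, though some that failed the filter moved. Kcnf1, a silent subunit, had 6.44 on knockout 2 and 5.31 on wild type 1, against 5.66 to 6.10 on the other 4 arrays. Kcnrg and Kcnh7 differed by -0.67 and 0.67 on wild type 1 from the mean of the other 5. Kcnn1, a small-conductance channel of neurons, had 6.31, 6.02 and 6.15 on the knockout arrays, against 6.07, 6.21 and 6.17 on the wild-type arrays. Kcnmb3, a BK beta subunit, had 6.19, 6.00 and 6.11 on the knockout arrays, against 6.18, 6.01 and 6.00 on the wild-type arrays. Neither separated the genotypes or any single array. The sodium-activated channels Kcnt1 and Kcnt2 and the sperm channel Kcnu1 all failed the filter, and wild type 1 differed from the other arrays by -0.31 to 0.03 for them. Both transcripts opposite Kcnmb4 failed it as well, with differences of -0.12 and -0.09.

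Without knockout 2 and wild type 1, none of the 91 genes spanned more than 1 log2 unit over the remaining 4 arrays, while 1.06% of all genes did. That pair was set aside after the values had been seen. Over 0.5 units, 16 of 91 (17.6%) did, against 16.7% of all genes, and the median range was 0.39 for the channel genes against 0.30. Over all 6 arrays, 22 (24.2%) spanned more than 1 unit, against 19.2%, and 6 (6.59%) more than 2 units, against 6.78%.

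A further set of genes, among them some described above, was chosen because they are known in aortic smooth muscle and endothelium. Kcnma1, the BK pore, had 7.71, 8.34 and 7.29 on the knockout arrays, against 7.09, 7.50 and 7.78 on the wild-type arrays. Its beta subunit Kcnmb1, which raises its calcium sensitivity in smooth muscle, had 7.70, 7.82 and 7.42 on the knockout arrays, against 8.28, 7.45 and 7.81 on the wild-type arrays. The genotypes overlapped for both, and the highest value came from knockout 2 for the pore and from wild type 1 for the beta subunit. The differences of means, knockout minus wild type, were 0.32 (SE 0.32) for Kcnma1 and -0.20 (SE 0.24) for Kcnmb1. Without knockout 2 that of Kcnma1 was 0.04, and without wild type 1 that of Kcnmb1 was 0.017.

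Kcnj8 had 7.51, 7.28 and 7.25 on the knockout arrays, against 7.90, 7.13 and 7.29 on the wild-type arrays. The groups overlapped and the difference was -0.09 (SE 0.22), or 0.14 without wild type 1. Abcc9, the receptor for sulfonylureas that joins Kcnj8 in vascular channels, had 9.25, 9.26 and 9.31 on the knockout arrays, against 9.55, 9.14 and 9.46 on the wild-type arrays. Wild type 1 was the highest array for both partners. Kcnq5 differed by 0.34 (SE 0.26) and Kcnk6 by 0.41 (SE 0.36), both with wild type 1 as the lowest array. Without it the differences were 0.065 for Kcnq5 and 0.022 for Kcnk6.

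Kcna2, a Kv1 pore of neurons and arterial muscle, came nearest to separating the genotypes among the genes that passed the filter. It had 7.56, 7.48 and 7.61 on the knockout arrays, against 7.26, 7.17 and 7.48 on the wild-type arrays. Knockout 2 lay at the level of wild type 3, and the difference was 0.24 (SE 0.12, 95% interval -0.05 to 0.54). Its unadjusted limma p was 0.0911 and the adjusted p 0.911. A second probe set of Kcna2 had 6.63, 6.51 and 6.50 on the knockout arrays, against 6.03, 6.25 and 6.25 on the wild-type arrays. That probe set did not overlap between genotypes and differed by 0.37. Kcna5, a vascular Kv1 pore that failed the filter, had 5.22, 5.40 and 5.42 on the knockout arrays, against 6.24, 5.32 and 5.58 on the wild-type arrays.

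**Figure D4:**
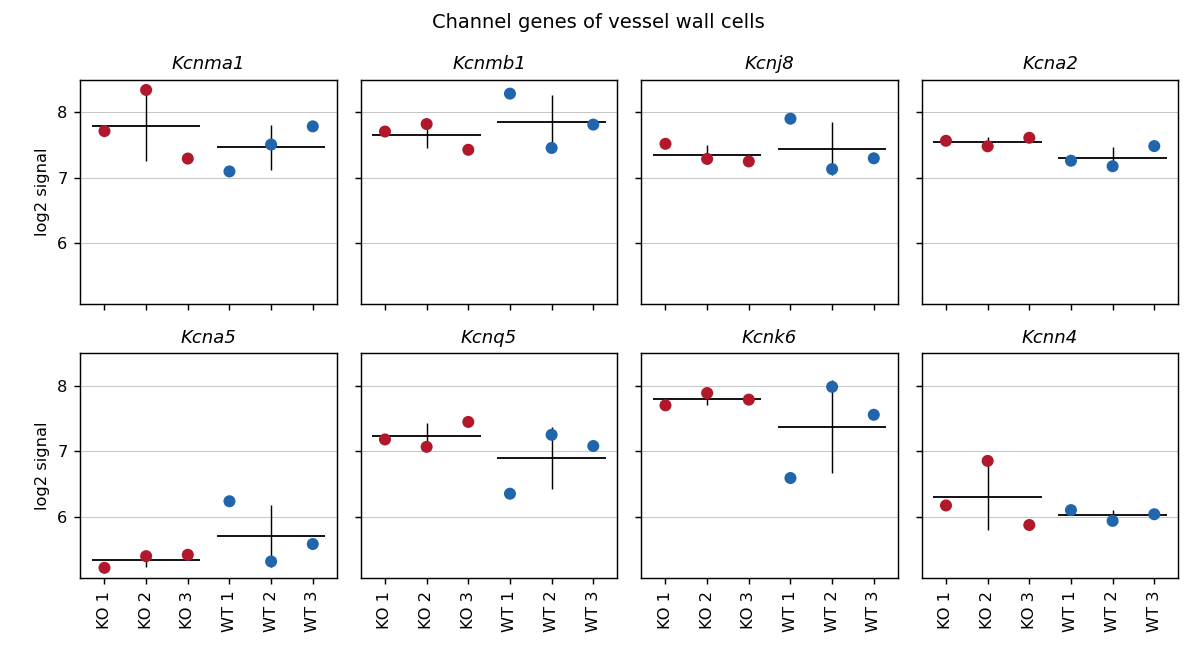
Log2 signal on each array of the channel genes known in aortic smooth muscle and endothelium, Trail knockout left of wild type, with lines at the mean ± SD of each group of 3. The groups overlap for each gene shown, including Kcna2 at 7.48 to 7.61 in the knockout and 7.17 to 7.48 in wild type.

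No potassium channel gene passed the test between the genotypes. In limma with Benjamini-Hochberg adjustment over 13073 probe sets, 0 of the 35 tested channel genes had an adjusted p under 0.05, and 0.0% of all probe sets did. The lowest adjusted p of these genes was 0.911. At an unadjusted p under 0.05, 0 of 35 and 83 of 13073 (0.635%) passed. Without the filter, 2 of the 91 had an unadjusted p under 0.05, and the lowest adjusted p was 0.946. These were Kcna4 and Kcne1.

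Kcna4, a rapidly inactivating Kv1 pore, had 4.30, 4.48 and 4.34 on the knockout arrays, against 3.89, 4.12 and 4.17 on the wild-type arrays. The groups did not overlap, and the difference was 0.31 (SE 0.11, limma unadjusted p = 0.0271, adjusted p = 0.946). Kcne1, the subunit that slows Kcnq1 in heart and ear, had 4.93, 5.26 and 4.77 on the knockout arrays, against 4.73, 4.47 and 4.58 on the wild-type arrays. Its groups did not overlap either, and knockout 2 was the highest. The difference was 0.39 (SE 0.15, limma unadjusted p = 0.0418, adjusted p = 0.946).

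In all, 6 of 91 genes (6.59%) had every knockout array above every wild-type array, against 2.81% of all genes, and 0 had every knockout array below, against 3.50%. All 6 were among the 56 that had failed the filter (10.7%), and of all genes that failed it 5.01% lay above. They were named after their values were seen. Besides Kcna4 and Kcne1, they were Kcnb2, Kcnh1, Kcnh3 and Kcns2. Kcnh1, an EAG channel of brain, had 5.92, 6.01 and 5.93 on the knockout arrays, against 5.49, 5.80 and 5.82 on the wild-type arrays. Kcns2, a silent subunit, had 4.07, 4.04 and 3.87, against 3.61, 3.79 and 3.87. For Kcnb2, a Kv2 pore, the values were 4.95, 4.90 and 4.76 in the knockout, against 4.66, 4.76 and 4.76 in wild type. Kcnh3, a voltage-gated channel of forebrain, had 5.75, 5.55 and 5.57, against 5.45, 5.45 and 5.49. The steps between the groups were small, and for Kcnb2 and Kcns2 the nearest arrays are equal at 2 decimals.

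**Figure D5:**
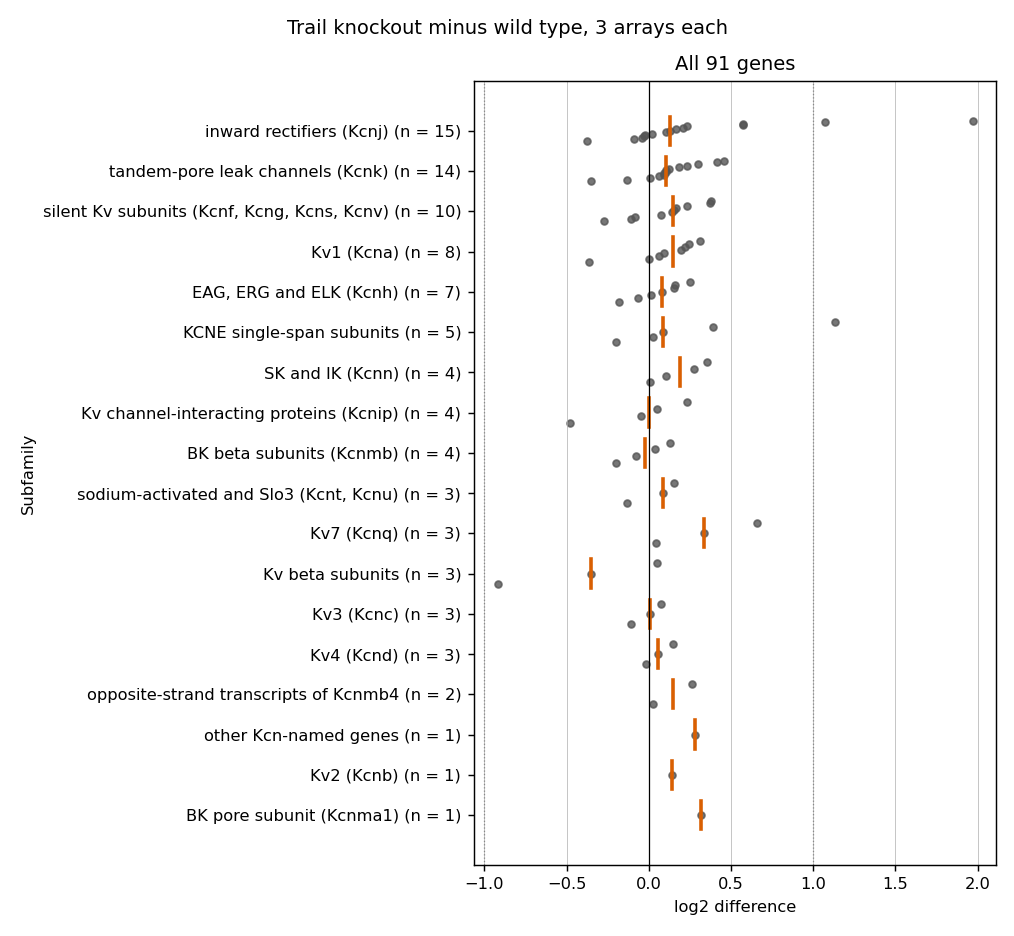
Difference of the genotype means, Trail knockout minus wild type (log2), for every channel gene by subfamily. Points are genes, orange bars are subfamily medians and dotted lines mark a 2-fold difference, and the points beyond it, Kcnj16, Kcnj15 and Kcne2, are genes that stood high on knockout 2.

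The genotype means of the channel genes leaned towards the knockout without any gene passing the test. Of the 91, 68 (74.7%) had a higher mean in the knockout, against 49.8% of all genes, and the median difference was 0.10, against 0.00 over all genes. Among the 35 that passed the filter the share was 80.0%, against 41.7% of all genes that passed. Among the 56 that failed it the share was 71.4%, against 61.6%. Knockout 1 was the highest of 6 arrays for 34 of the 91 (37.4%), against 23.6% of all genes. That was 12 of the 35 that passed the filter (34.3%, against 12.0% of all that passed) and 22 of the 56 that failed it (39.3%, against 40.8%). Wild type 1 was the highest for 18 (19.8%, against 33.4% of all genes) and the lowest for 32 (35.2%, against 24.6%), and wild type 2 the lowest for 29 (31.9%, against 21.6%). After quantile normalization 53 of 91 (58.2%, against 44.5% of all genes) were higher in the knockout. Median centring, which shifts all genes of an array alike, gave 60 (65.9%, against 41.7%). Without knockout 1 the count was 48 (52.7%, against 42.7%) and the median difference 0.02.

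By subfamily, the median differences, knockout minus wild type, ran from -0.35 for the Kv beta subunits to 0.34 for Kv7. Kv1 had 0.15, with 7 of 8 means higher in the knockout, the tandem-pore channels 0.11 (12 of 14), Kcnn 0.19 (4 of 4) and inward rectifiers 0.13 (10 of 15). The BK beta subunits had -0.02 (2 of 4) and Kcnip 0.00 (2 of 4). Leaving out 1 array moved these medians. Without wild type 1 that of the Kv beta subunits was 0.02, that of Kcnn -0.02 and that of the BK beta subunits 0.05. Without knockout 2 that of Kv7 was 0.12 and that of the inward rectifiers 0.06. Without knockout 1 those of Kv1 and the tandem-pore channels were 0.07 and 0.02, and without wild type 2 that of the inward rectifiers was 0.02. Under quantile normalization and median centring the medians kept their sign, while that of Kv3 (0.01) became negative under both and that of Kv4 (0.06) under quantile normalization. The extremes lay on single arrays. Kcnj16 differed by 1.97, Kcne2 by 1.13 and Kcnj15 by 1.07 (SE 0.91), all with knockout 2 high. Kcnj2 differed by 0.57 (SE 0.90) with wild type 1 low, and Kcnab1 by -0.92 with wild type 1 high. Without wild type 1 the difference of Kcnj2 was -0.47, and without knockout 2 that of Kcnj15 was -0.02.

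Genes that act with these channels were read from 8 lists, of which 73 of 87 genes were on the array and 40 were tested. By limma, 0 of 40 were called and 0 had an unadjusted p under 0.05. On wild type 1, 7 of the 73 were over 2-fold below every other array and 5 above, against 4.74% and 4.73% of all genes. These counts partly repeat the marker lists, as Ryr1 and Cacna1s below and Ryr2 above also served as markers here. Cacna1s, the calcium channel of skeletal muscle, had 5.70 on wild type 1, against 8.79, 8.47 and 9.07 on the knockout arrays and 8.87 and 9.17 on wild types 2 and 3. Rgs7, a regulator of G-protein-gated channels in neurons, had 8.44 on wild type 1, against 3.76, 3.95 and 3.63 on the knockout arrays and 3.44 and 3.63 on wild types 2 and 3. Kcnj3, the channel of this kind described above, was also highest on that array. It failed the signal filter and reached only 5.87 there. On knockout 2, 3 of the 73 related genes were over 2-fold above, against 1.26% of all genes, and Atp4a among them was also a stomach marker here. Lrrc26, a gamma subunit of BK channels in secretory epithelium, had 7.35 on knockout 2 against 5.22 to 5.81 on the other 5 arrays.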

How the data were processed

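RNA of 6 samples labelled as mouse aorta was measured on one-colour Affymetrix arrays, with 3 arrays per genotype. Per the labels' protocols, Trizol was used to extract RNA, of which 6 ug was turned into biotinylated cRNA. The authors deposited log2 values of 35399 probe sets in 1 column a sample, and 0 columns had no sample. No source gives the log base, which was inferred from their range, 1.55 to 13.96. MAS5 is named, without version or role, per the submitters' processing notes. Scaling between arrays is unknown here, and the number of arrays limits the precision.

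Of 23410 probe sets in the platform annotation, 21789 had 1 gene symbol and were used, and 1621 had several. Leaving out the lowest 40% by mean gave 13073, tested in limma 3.58.1 (R 4.3.3) with eBayes set to an intensity trend, adjusted by Benjamini-Hochberg at 0.05. Genes that failed the filter took their values from a fit over 21789 probe sets. Differences are knockout minus wild type. Counts for single arrays, non-overlap and subfamilies are descriptions, with no test. The fit was tested on simulated data.

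The members, subfamilies and lists were chosen with earlier results of these data known. Named genes were those over 2-fold beyond all other arrays on 1 array and those past the filter with non-overlapping groups. There were none of the latter on the probe set that stood for each gene. The 3 of highest mean per subfamily, channels known in the vessel wall, and a few of the related and marker lists were named too. Others were named after their values were seen. Alternatives were other normalizations, a pseudocount of 64, other filters and forms of the limma fit, and array weights. Fold thresholds of 1.5 and 4, leaving arrays out and the mean over the probe sets of a gene were used as well.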

Additional observations from a re-analysis of the deposited data

How the results depend on the processing

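The count of channel genes called between genotypes was 0 in limma under all alternatives, while over all probe sets 0 were called and those with an unadjusted p under 0.05 numbered 83 with all arrays, 640 with array weights, 273 without the filter, 47 with a 60% filter and 28 to 217 on leaving out 1 array. Of 203 alternative values for 13 named genes, 21 had the opposite sign and 0 passed the threshold. With array weights, the differences were -0.40 for Kcnj2, 0.13 for Kcnj8, 0.17 for Kcnk3, -0.001 for Kcnma1 and -0.22 for Kcnn3. Leaving out 1 array gave -0.017 to 1.69 for Kcnj15, -0.002 to 0.49 for Kcnn4, -0.47 to 1.11 for Kcnj2, -0.25 to 0.14 for Kcnj8, -0.65 to 0.20 for Kcnk3, -0.40 to 0.017 for Kcnmb1, -0.14 to 0.65 for Kcnn3, -0.19 to 0.81 for Kcnv1, 0.04 to 0.56 for Kcnma1, 0.065 to 0.52 for Kcnq5 and 0.022 to 0.72 for Kcnk6. Without wild type 1 and knockout 2, chosen after seeing the data, they were -0.013 for Kcnj15, -0.24 for Kcnj2, 0.17 for Kcnj8, 0.16 for Kcnk3, -0.025 for Kcnk6, -0.14 for Kcnma1, -0.27 for Kcnn3 and -0.052 for Kcnv1. The count of non-overlapping genes without 1 array was lowest at 10 of 91 without knockout 2, against 12.5% of all genes. It was highest at 23 of 91 without knockout 3, against 20.4%. Without wild type 1 and knockout 2 it was 24 of 91, against 22.9%. With all arrays it was 0 among genes past the filter, on the probe set that stood for each. Smaller groups overlap less. With all arrays and the mean over the probe sets of a gene, the groups did not overlap for 7 of the 91. In limma on these means, 1 of 37 channel genes had an unadjusted p under 0.05 and 0 were called. The median genotype difference over the 91 genes lay between 0.02 and 0.16 over the alternatives. On wild type 1, a pseudocount of 64 gave 2 genes above and 1 below, 1.5-fold gave 6 above (9.24% of all genes) and 7 below (7.32%), and 4-fold gave 1 above (1.18%) and 1 below (2.24%). On knockout 2, counted with alternatives chosen after seeing the data, 1.5-fold gave 7 (2.00%) and 4-fold 3 (0.572%). Values per subfamily without single arrays were also added after seeing the data.

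Same-numbered arrays had correlations of deviations from the group means of 0.09, -0.25 and 0.21. Arrays of unlike number had -0.335 to 0.419. No pairing by replicate number was seen, but deviations of 3 arrays per group cannot exclude one. With the replicate number as a block, 0 channel genes and 0 probe sets were called, and 68 probe sets had an unadjusted p under 0.05.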

Other observations

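Several members of the family sit beside each other in the genome, and some such neighbours differed on wild type 1. Kcna5, Kcna1 and Kcna6 lie in a row on chromosome 6, and on wild type 1 Kcna5 was 0.85 above the mean of the other 5 arrays while Kcna1 and Kcna6 were -0.31 and -0.29 from it, on the log2 scale. Kcnip1, which failed the filter, and its neighbour Kcnmb1 on chromosome 11 were -0.36 and 0.64 from that mean. Kcnj5 and Kcnj1 on chromosome 9 were 0.33 and 0.08 from it, and both failed the filter.

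The 69 promoters of the family found in the RefSeq table had a median GC content of 58.3%, against 52.7% over all promoters in it. The second probe set of Kcnma1 stayed between 3.23 and 3.79 on all 6 arrays, while the probe set that stood for the gene spanned 7.09 to 8.34.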
